A study of Mus musculus with 2 samples.

Results

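*Grb10*, *H13*, *Mcts2*, *Igf2r*, *Gnas* and *Blcap* are 6 imprinted genes of the mouse, chosen by name from the 31053 genes of the deposited tables. All 6 had at least 50 unique molecular identifiers (UMIs, each marking 1 captured mRNA molecule) over both libraries, as did 13654 genes in all. The data are 2 single-cell RNA-seq libraries, 1 per condition, from feeder-free E14 mouse embryonic stem cells (mESCs) on gelatin in serum and LIF, a medium for naïve pluripotent cells. WT is the parental line, and S1/5 dKO is a CRISPR-Cas9 line meant to lack *Smad1* and *Smad5*, the transducers of BMP signals. Neither the line used among several, nor whether it is 1 clone, is given in the sources used here.

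A barcode counted as a cell if it held 1000 or more detected genes and no more than 5% mitochondrial UMIs. This gave 2236 WT cells with 95965242 UMIs (median 38662 per cell) and 2910 cells with 109020533 UMIs (median 34548.5) in the other library, with 0 kept barcodes in common. *Smad1* was at 13.4 UMIs per 1000000 (CPM) in WT and 9.17 in the other library, but *Smad5* was higher there, at 9.09 against 6.05, so this library is named by its label only. UMIs near the 3′ end do not show whether an edit further upstream is present. *Id1*, a BMP target gene, was at 323 CPM in WT and 161 in the S1/5 dKO-labelled library. All 8 pluripotency markers were present in both, with summed levels of 3188 and 3236 CPM, against 2.07 and 2.23 for 8 endoderm markers and 1.39 and 1.48 for 8 fibroblast markers, of which *Col3a1* was at 0 in both. The 5 neural markers summed to 151 and 161 CPM, mostly from the tubulin gene *Tubb3* at 141 and 152 CPM, with *Sox1* in 16.1% and 16.8% of cells and *Pax6* in 12.4% and 7.32%, and their part in the differences was not tested. The 2C markers *Zscan4c*, *Zscan4d*, *Tcstv3* and *Usp17la* summed to 1.75 and 4.73 CPM, and their part in the differences below was not tested. With 1 library per condition, no difference between the conditions could be tested. All intervals are exact 95% intervals that cover counting error only, not the spread from culture to culture. Those on UMI counts take UMIs as independent, so they are too narrow where the UMIs of a gene gather in some cells.

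Imprinted genes are read mainly from the allele of 1 parent, under the control of regions methylated in the egg or the sperm. Many lie in pairs in which a gene read from the paternal allele sits within, or runs antisense to, a gene read from the maternal allele. *Mcts2*, a retrogene copied from the X-linked *Mcts1*, lies in an intron of *H13*, and *H13* transcripts can end before it. *Nnat* lies in *Blcap*, *Nespas* runs against *Gnas*, and *Airn* runs against *Igf2r*. *Grb10* is read from the maternal allele in most tissues. The counts do not separate the parental alleles, so every value below is a sum over both.

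The promoters of both nested genes, of their hosts and of *Grb10* are shown because these genes differed between the libraries in opposite directions. Each run holds the 250 bases before and 50 after a RefSeq start (GRCm38.p6), 5′ to 3′ along the gene. Capitals mark the hexamer TGCCGC, bound by the imprinting factor ZFP57 when methylated, on either strand. It was found in 11.6% of 32851 RefSeq promoter windows of this length. The windows are chr2:152686898-152687197 for *Mcts2* and chr2:152669211-152669510 for *H13*, both on the plus strand, chr2:157559828-157560127 for *Nnat* on the plus strand, chr2:157566312-157566611 for *Blcap* on the minus strand, and chr11:12037371-12037670 for *Grb10* on the minus strand.
Mcts2: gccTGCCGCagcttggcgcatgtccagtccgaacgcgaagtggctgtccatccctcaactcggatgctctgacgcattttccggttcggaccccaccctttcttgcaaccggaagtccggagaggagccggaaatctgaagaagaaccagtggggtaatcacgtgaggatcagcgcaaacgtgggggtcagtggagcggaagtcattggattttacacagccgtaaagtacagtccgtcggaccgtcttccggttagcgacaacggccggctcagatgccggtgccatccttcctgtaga
H13: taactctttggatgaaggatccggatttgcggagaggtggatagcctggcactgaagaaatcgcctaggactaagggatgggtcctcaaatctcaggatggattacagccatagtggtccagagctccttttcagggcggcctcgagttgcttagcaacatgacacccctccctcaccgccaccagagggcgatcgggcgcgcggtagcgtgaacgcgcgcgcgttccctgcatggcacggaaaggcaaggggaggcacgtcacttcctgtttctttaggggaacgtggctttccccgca
Nnat: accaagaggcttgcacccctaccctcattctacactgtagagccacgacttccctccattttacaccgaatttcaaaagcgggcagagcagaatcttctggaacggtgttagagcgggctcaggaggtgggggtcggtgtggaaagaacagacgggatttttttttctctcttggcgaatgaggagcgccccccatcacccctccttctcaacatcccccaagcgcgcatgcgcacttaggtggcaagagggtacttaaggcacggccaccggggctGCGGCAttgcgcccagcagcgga
Blcap: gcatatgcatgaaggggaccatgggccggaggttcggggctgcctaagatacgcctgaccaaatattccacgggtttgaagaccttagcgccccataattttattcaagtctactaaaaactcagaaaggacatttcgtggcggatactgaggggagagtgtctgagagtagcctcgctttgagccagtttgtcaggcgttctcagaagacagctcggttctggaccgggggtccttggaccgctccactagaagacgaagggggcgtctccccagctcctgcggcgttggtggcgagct
Grb10: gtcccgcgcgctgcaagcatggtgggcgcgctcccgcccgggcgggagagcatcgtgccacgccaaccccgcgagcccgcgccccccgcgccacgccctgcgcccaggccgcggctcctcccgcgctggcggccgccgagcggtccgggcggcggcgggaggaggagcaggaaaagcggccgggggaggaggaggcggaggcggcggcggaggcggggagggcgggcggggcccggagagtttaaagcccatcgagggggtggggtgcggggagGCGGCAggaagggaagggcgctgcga

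The hexamer occurred 1 time in the windows of *Mcts2*, *Nnat* and *Grb10*, and 0 times in those of *H13* and *Blcap*. It was also at 0 in a further *Grb10* window, in the 4 windows of *Gnas* and in those of *Igf2r* and *Airn*. The printed windows held 25 CpG dinucleotides for *Mcts2*, 21 for *H13*, 17 for *Nnat*, 17 for *Blcap* and 45 for *Grb10*, against a median of 7 over all windows. The hexamer itself holds a CpG, and its share among windows of like CpG number was not computed. A match describes the letters of a window and is no evidence that a factor binds there.

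To see how the members differed, their UMIs were summed over the cells of each library. *Grb10* was 8.86-fold lower in the S1/5 dKO-labelled library, *Mcts2* was 1.72-fold higher, *H13*, *Gnas* and *Blcap* were 1.34-, 1.31- and 1.22-fold lower, and *Igf2r* did not differ beyond counting error. Thus 1 of the 6 was at least 2-fold lower, where 0.432% of all genes with at least 50 UMIs were, and 0 were at least 2-fold higher, against 0.872%. The same gene was the only member at least 1.5-fold lower, against 2.61% of genes, and *Mcts2* the only member at least 1.5-fold higher, against 2.81%. At 1.2-fold, 4 of the 6 were lower and 1 was higher, where 11.4% and 9.13% of all genes were. The members were chosen with earlier results of these data known, so these shares are a description and no test. The median log2 ratio of all genes was −0.01, and 90% of genes lay between −0.44 and 0.40. The ratios of *H13*, *Igf2r*, *Gnas* and *Blcap* lay within that range, and those of *Grb10* and *Mcts2* lay outside it.

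**Figure D1:**
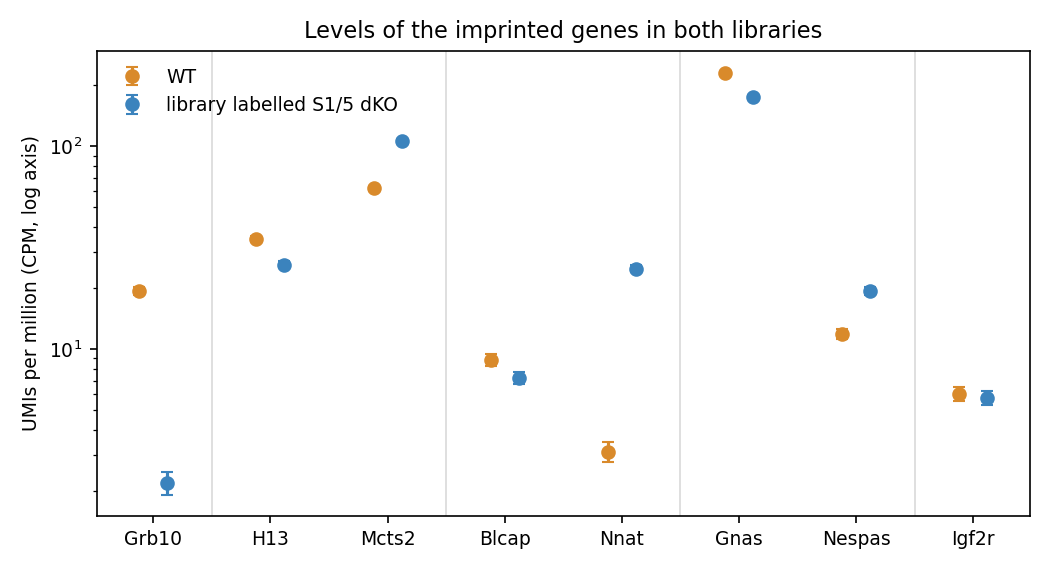
Levels of the members and their partners in both libraries. The y axis is CPM on a log axis, orange points are WT, blue points the S1/5 dKO-labelled library, and bars are exact 95% counting intervals, hidden by the point where short. Grb10 was at 19.4 and 2.19 CPM and Nnat was at 3.13 and 24.9 CPM, while Igf2r sat at 6.02 and 5.77 CPM.

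*H13*, which encodes signal peptide peptidase, an intramembrane protease of the endoplasmic reticulum, was at 35.0 CPM in WT (3362 UMIs) and at 26.1 in the S1/5 dKO-labelled library (2847 UMIs). Its log2 ratio was −0.42, with an interval from −0.50 to −0.35. *Mcts2*, whose protein is a translation factor like that of *Mcts1*, was at 62.0 CPM (5946 UMIs) and 106.6 CPM (11619 UMIs), a log2 ratio of 0.78 (0.74 to 0.83). The nested gene was thus higher and its host lower in the same library. Of the UMIs of the pair, *Mcts2* held 63.9% in WT (62.9% to 64.9%) and 80.3% in the S1/5 dKO-labelled library (79.7% to 81.0%). This share is taken within the same cells and does not depend on how the libraries are scaled.

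Both genes lie on the plus strand of chromosome 2, *H13* at 152669461 to 152708670 and *Mcts2*, 912 bp long, at 152687035 to 152687946 (GRCm38), and 0 of its exons overlap those of *H13*. Annotated *H13* transcripts end 334 bp and 3594 bp before *Mcts2* starts, whereas the longest runs 21635 bp past its start. The counts sum these forms. *Mcts1*, the source of the retrogene, was at 74.2 and 78.4 CPM, a log2 ratio of 0.08 (0.04 to 0.13). Over an alignment of 682 bases, the *Mcts2* transcript and the *Mcts1* transcript of 783 bases were 83.4% identical, and 0 of the 863 stretches of 50 bases in the *Mcts2* transcript occurred unchanged in the annotated *Mcts1* transcripts.

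*Blcap*, a gene named for bladder cancer, was at 8.84 CPM in WT (848 UMIs) and 7.23 in the S1/5 dKO-labelled library (788 UMIs), a log2 ratio of −0.29 (−0.43 to −0.15). *Nnat*, which encodes the small membrane protein neuronatin and lies inside *Blcap* on the opposite strand, was at 3.13 CPM (300 UMIs) and 24.9 CPM (2714 UMIs), a log2 ratio of 2.99 (2.82 to 3.17). The nested gene was again higher and the host lower. *Nnat* held 26.1% of the pair's UMIs in WT (23.6% to 28.8%) and 77.5% in the S1/5 dKO-labelled library (76.1% to 78.9%).

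*Gnas*, which encodes the stimulatory G protein alpha subunit, was at 229 CPM in WT (22010 UMIs) and 175 in the S1/5 dKO-labelled library (19124 UMIs), a log2 ratio of −0.39 (−0.41 to −0.36). *Nespas*, an antisense transcript of the locus, was at 11.8 CPM (1137 UMIs) and 19.4 CPM (2111 UMIs), a log2 ratio of 0.71 (0.60 to 0.81). Its share of the pair's UMIs was 4.91% in WT and 9.94% in the S1/5 dKO-labelled library. This pair therefore went apart in the same way as *H13* and *Mcts2*. *Nespas* shares 11117 bp with *Gnas*, and 3 of its exons overlap *Gnas* exons on the other strand. The *Gnas* locus makes several transcripts, imprinted in different ways, that share their 3′ end, and the counts do not tell them apart.

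*Igf2r*, the receptor that carries mannose 6-phosphate-tagged enzymes to lysosomes and clears IGF2, was at 6.02 CPM in WT (578 UMIs) and 5.77 in the S1/5 dKO-labelled library (629 UMIs). Its log2 ratio was −0.06, with an interval from −0.23 to 0.10 that holds 0. *Airn*, the antisense RNA known to silence the paternal *Igf2r* allele in differentiated cells, had 1 UMI in WT and 5 UMIs in the S1/5 dKO-labelled library. At this depth no difference in *Airn* could be detected.

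*Grb10*, an adaptor protein that binds the insulin and IGF1 receptors and dampens their signals, was at 19.4 CPM in WT (18.6 to 20.3, 1864 UMIs) and at 2.19 CPM in the S1/5 dKO-labelled library (1.92 to 2.49, 239 UMIs). The log2 ratio was −3.15, with an interval from −3.35 to −2.95. It was the lowest ratio of the 13654 genes. Barcodes with 10 to 100 UMIs, taken as empty, held on average 0.051% of the *Grb10* UMIs of a WT cell and 0.084% of those of an S1/5 dKO-labelled cell.

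The difference could lie in how many cells held a gene or in how much each held, so the UMIs were next counted cell by cell. Without thinning, 984 of 2236 WT cells (44.0%) and 210 of 2910 S1/5 dKO-labelled cells (7.22%) held a *Grb10* UMI. Since depth differed, each cell was then thinned at random to 10000 UMIs, which left out 43 WT cells and 67 S1/5 dKO-labelled cells. The share with *Grb10* was 16.3% (14.8% to 17.9%) in WT and 2.32% (1.80% to 2.94%) in the S1/5 dKO-labelled library. *Mcts2* was seen in 44.7% (42.6% to 46.8%) and 63.3% (61.5% to 65.1%) of cells. *H13* was seen in 27.7% and 22.2%, and *Gnas* in 89.2% and 82.1%. For *Igf2r*, at 6.02% and 6.19%, and *Blcap*, at 8.80% and 7.60%, the intervals of the libraries overlapped. *Nnat* was seen in 2.60% and 21.4% of cells and *Nespas* in 11.7% and 16.4%. No cell type in these cultures is known to lack these genes, so no background share from such cells can be set beside these values.

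The UMIs of *Grb10* were gathered in a part of the WT cells. If every WT cell had the same rate per UMI, 53.7% of cells would hold at least 1 *Grb10* UMI at their own depth, and 44.0% did, a gap of 9.69 percentage points. Of the 13654 genes, 0.915% had a larger gap. The size a gap can reach depends on the level of a gene, and genes of like level were not compared. There were 1252 WT cells with 0 *Grb10* UMIs where the same rate gives 1035, and 50 with 5 or more where it gives 12.3. The most in a WT cell was 14, and the variance was 2.00 times the mean where the same rate gives 1.19. The counts fell steadily from 0 upward, with 530 cells at 1, 236 at 2, 105 at 3 and 63 at 4, and showed no separate peak of positive cells. In the S1/5 dKO-labelled library the gap was 0.61 points, where the same rate gives a share of only 7.83%. There 189 cells had 1 UMI, 15 had 2, 4 had 3 and 2 had 4. The same rate gives 217, 10.4, 0.40 and 0.014. The variance was 1.24 times the mean where the same rate gives 1.02, an excess that rests on the few cells with 2 or more UMIs. The observed minus the same-rate share was −0.61 points there, with an interval from −1.52 to 0.39 that holds 0.

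**Figure D2:**
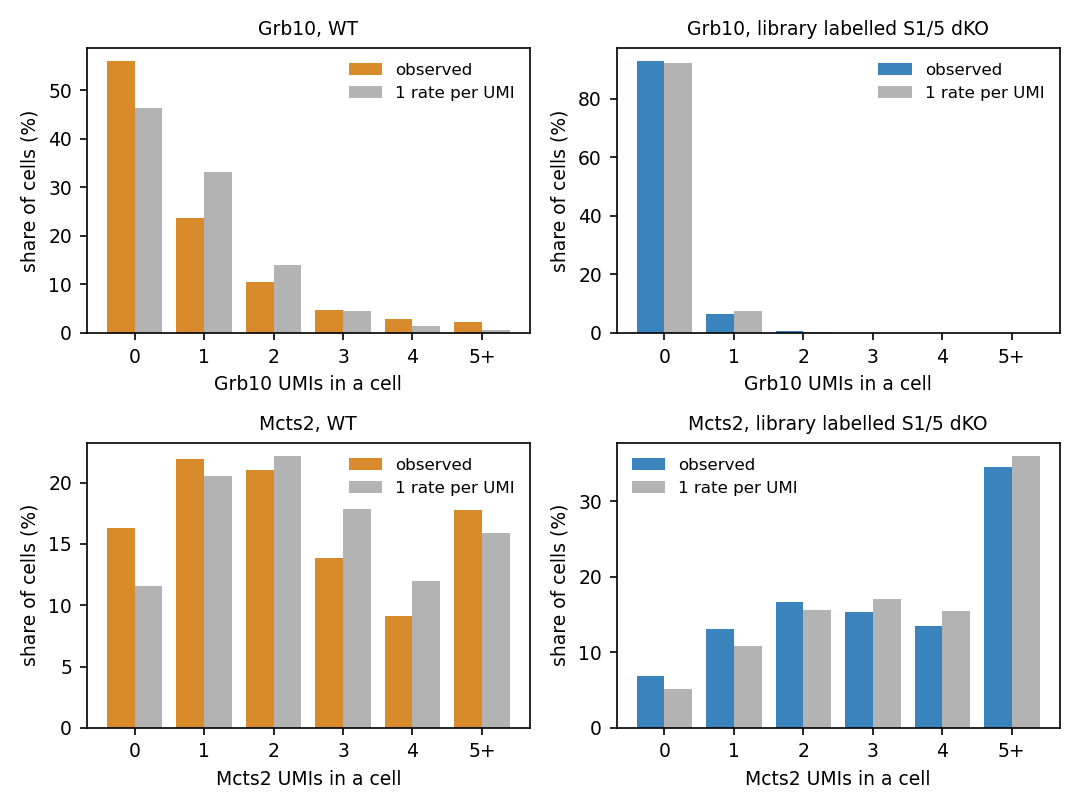
UMIs of Grb10 (top) and Mcts2 (bottom) per cell, without thinning. The x axis is the number of UMIs in a cell, the y axis the share of cells in percent, coloured bars are the observed shares (orange WT, blue the S1/5 dKO-labelled library) and grey bars the shares if all cells of the library had 1 rate per UMI. In WT, 56.0% of cells had 0 Grb10 UMIs against 46.3% with 1 rate, and the bars lie closer together for Mcts2.

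At full depth the other members had smaller gaps in WT. After thinning to 10000 UMIs the gaps in WT were 1.67 points for *Grb10* and 2.16 for *Mcts2*, so their order depends on the depth. The gap of *Mcts2* was then 2.43 points in the S1/5 dKO-labelled library, so that the order of the libraries turned as well. Without thinning, the gap of *Mcts2* was 4.72 points in WT and 1.75 points in the S1/5 dKO-labelled library, and 4.14% and 20.6% of genes had a larger gap. For *H13* it was 2.96 and 2.01 points, for *Igf2r* 0.86 and 1.53, for *Gnas* 0.41 and 0.61, and for *Blcap* 0.68 and 0.12. *Nnat*, with 3.53 points in WT and 4.89 in the S1/5 dKO-labelled library, had a larger gap than its host in both, at a different level. There were 365 WT cells and 199 S1/5 dKO-labelled cells with 0 *Mcts2* UMIs, where the same rate gives 259 and 148.

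Although host and nested gene differed in opposite directions between the libraries, the counts were too sparse to show whether *H13* and *Mcts2* go apart from cell to cell. In WT, *H13* was at 35.9 CPM (34.3 to 37.5) in the 1213 cells with 0 *Mcts2* UMIs among 10000 drawn, at 34.9 in the 672 cells with 1, and at 32.1 (28.7 to 35.8) in the 231 cells with 2. In the S1/5 dKO-labelled library it was at 25.7 CPM (24.1 to 27.3) in the 1044 cells with 0 and at 24.7 (20.1 to 30.0) in the 105 cells with 4 or more. At each number of *Mcts2* UMIs the value of *H13* was lower in the S1/5 dKO-labelled library. Pearson's r over cells between *H13* and *Mcts2* was −0.01 in WT (2236 cells) and 0.01 in the S1/5 dKO-labelled library (2910 cells), and between *Blcap* and *Nnat* −0.03 and −0.01. The points share library and depth, and in counts this sparse such values are no finding. *Blcap* was at 7.47 CPM (6.90 to 8.07) in the 2234 S1/5 dKO-labelled cells with 0 *Nnat* UMIs, at 6.99 (5.87 to 8.25) in the 513 with 1 and at 3.42 (1.77 to 5.97) in the 96 with 2 or more, the last from 12 *Blcap* UMIs. In WT the values went the other way, with *Blcap* at 8.78 CPM (8.19 to 9.40) in the 2136 cells with 0 *Nnat* UMIs and 12.7 (8.31 to 18.6) in the 48 with 1. Only 9 WT cells had 2 or more *Nnat* UMIs, too few to compare. Of the thinned cells, 250 of 2193 in WT held both *H13* and *Mcts2*, where their separate shares give 271, and 406 of 2843 in the S1/5 dKO-labelled library, where they give 399. Both *Blcap* and *Nnat* were held by 9 WT cells, where their separate shares give 5.02, and by 54 S1/5 dKO-labelled cells, where they give 46.3.

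**Figure D3:**
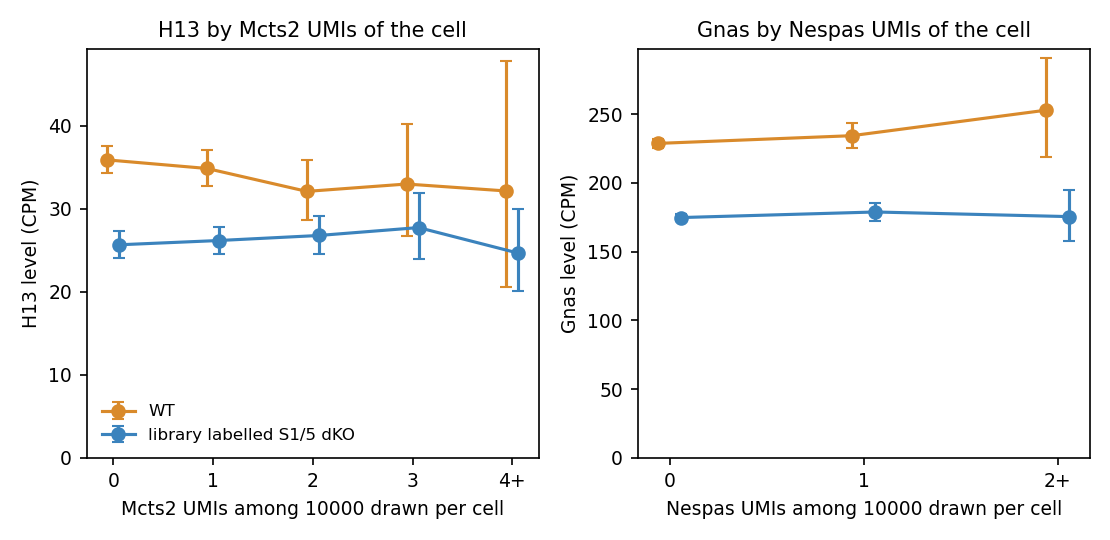
Level of H13 by the number of Mcts2 UMIs in the cell (left), and of Gnas by Nespas UMIs (right). The x axis is the partner's UMIs among 10000 drawn per cell, the y axis the host's CPM summed over those cells, colours are the libraries and bars exact 95% intervals. H13 stays between 32.1 and 35.9 CPM in WT and between 24.7 and 27.7 in the S1/5 dKO-labelled library, and Gnas shows no fall with Nespas UMIs.

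*Mest*, a paternally expressed gene at 11.3 CPM in WT and 93.6 in the S1/5 dKO-labelled library, had UMIs in 250 WT cells, which were compared with the 1986 without it. These 250 cells held *Mest* at 93.7 CPM. *Grb10* was at 7.41 CPM in the WT cells with a *Mest* UMI and 21.1 in those without, a log2 ratio of −1.51 (−1.84 to −1.20). *Mcts2* was at 85.0 and 58.8 CPM (0.53, from 0.43 to 0.63), *Nnat* at 13.9 and 1.65 (3.07, from 2.74 to 3.41), *Nespas* at 14.7 and 11.5 (0.36, from 0.12 to 0.60) and *Gnas* at 200.1 and 233 (−0.22, from −0.28 to −0.16). These genes thus differed within WT in the directions they differed between the libraries. *H13* (−0.09, from −0.25 to 0.06), *Blcap* (−0.06, from −0.38 to 0.25) and *Igf2r* (0.35, with an interval that holds 0) did not differ beyond counting error. Cells of a library are not replicates of a condition, and a deeper cell is more likely to hold a *Mest* UMI.

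In the S1/5 dKO-labelled library, 2548 cells held a *Mest* UMI and 362 did not. There the log2 ratio of *Grb10* between them was −0.33 (−0.92 to 0.32) and that of *Mcts2* −0.05 (−0.14 to 0.04), and of the 6 members none differed beyond counting error. Between the libraries, the log2 ratio of *Grb10* was −2.97 (−3.59 to −2.41) among cells without *Mest* UMIs and −1.79 (−2.16 to −1.41) among cells with them. The ratio of *Mcts2* was 0.90 (0.81 to 1.00) and 0.32 (0.23 to 0.42) in the same groups of cells, and that of *H13* −0.51 and −0.33, and that of *Gnas* −0.40 (−0.47 to −0.33) and −0.19 (−0.25 to −0.13). For these 4 genes the direction was thus the same in both groups of cells, and for *Grb10*, *Mcts2* and *Gnas* the intervals of both groups did not overlap. The groups are not matched between the libraries. If all cells of a library had the same rate, 1408 WT cells and 194 S1/5 dKO-labelled cells would hold 0 *Mest* UMIs, where 1986 and 362 did.

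**Figure D4:**
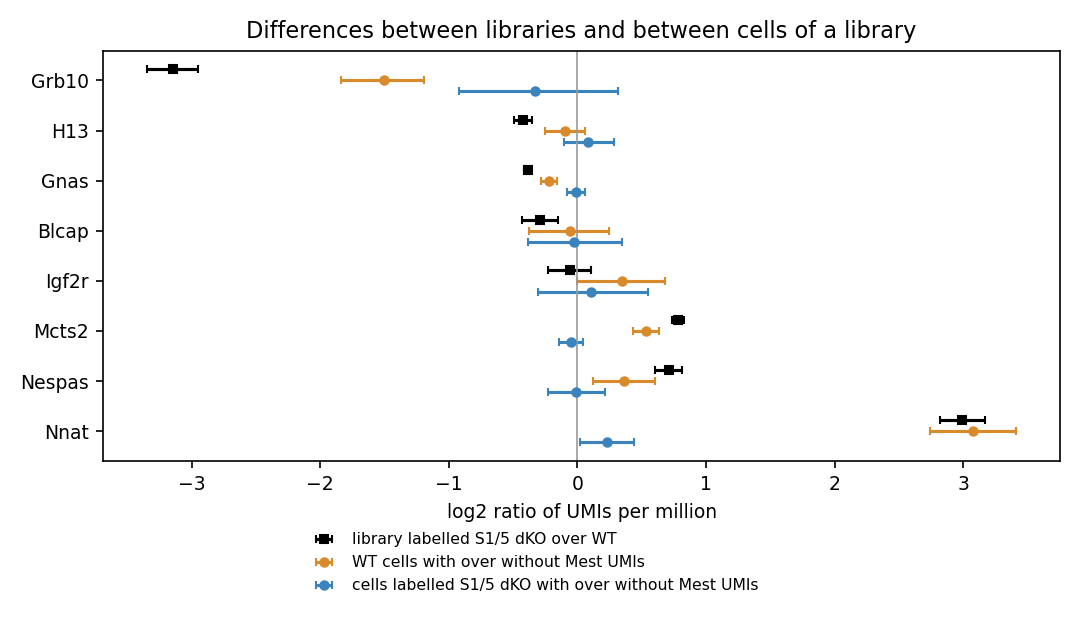
Log2 ratios of the members and partners between the libraries (black squares), between WT cells with and without Mest UMIs (orange) and between S1/5 dKO-labelled cells with and without Mest UMIs (blue). The x axis is the log2 ratio of CPM, rows are genes and bars exact 95% counting intervals. Grb10 lies at −3.15, −1.51 and −0.33, and Mcts2 at 0.78, 0.53 and −0.05.

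Turned around, the 984 WT cells with a *Grb10* UMI held *Mest* at 5.09 CPM and the 1252 cells without at 17.4 CPM, and *Mcts2* at 57.1 and 66.7 CPM. In 3 groups of cells split by total UMIs, and in 3 split by the share of UMIs on 12 mitotic genes, the log2 ratio of *Grb10* between the libraries lay between −3.67 and −2.71, that of *Mcts2* between 0.75 and 0.83, that of *H13* between −0.55 and −0.31 and that of *Gnas* between −0.42 and −0.35. In the S1/5 dKO-labelled library, *H13* was at 21.8 CPM in the 481 cells with a UMI of *Sp5*, a Wnt target gene, and at 27.0 in the 2429 without. In WT it was at 36.9 CPM in the 287 cells with *Sp5* and at 34.7 in the 1949 without, a log2 ratio of 0.09 (−0.05 to 0.22). Between the libraries, the log2 ratio of *Grb10* was −2.37 (−2.96 to −1.80) without a *Nanog* UMI and −3.25 (−3.47 to −3.04) with 1. In these groups *H13* was at −0.82 and −0.40, *Mcts2* at 1.00 and 0.77 and *Gnas* at −0.40 and −0.39. Without and with *Sp5*, *Grb10* was at −3.27 and −2.67 and *H13* at −0.36 and −0.76. *Mcts2* was at 0.79 and 0.75 and *Gnas* at −0.36 and −0.53.

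The genes around *Grb10* differed less than it did. Its ratio was the lowest of all genes with at least 50 UMIs, so this alone says little about the locus. Of the 4 other genes with at least 50 UMIs that start within 500 kb of its start, none was 1.5-fold apart. Among all genes, 2.61% were at least 1.5-fold lower and 2.81% higher. At 1.2-fold, 1 of the 4 was lower and 0 were higher. This was *Ddc*, the nearest on the lower side and imprinted in heart, with a log2 ratio of −0.29 (−0.36 to −0.21). *Cobl*, the nearest on the upper side, was at 0.13 (0.08 to 0.18). Around *Igf2r*, 0 of 8 genes were 1.5-fold apart, and *Pnldc1* and *4732491K20Rik*, the nearest on either side by the start, had log2 ratios of 0.18 and 0.22. Around *Gnas*, *Nespas* was the only one of 8, and *Gm10714* and *Nelfcd*, the nearest beside it, had 0.06 and −0.04. Around *Blcap*, they were *Nnat* and the noncoding *Platr27* (1.38, from 1.17 to 1.60) of 11, and *Src* and *Ctnnbl1* had −0.07 and 0.01.

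The surroundings of *H13* were more varied, with 6 of 19 genes 1.5-fold apart, where 2.61% of all genes were lower and 2.81% higher by that much. These were *Id1* at −1.01, whose start lies 27.6 kb past the end of *H13*, and, in the other direction, *Mcts2* at 0.78, *Gm26841* at 0.61, *Cox4i2* at 0.62, *Rem1* at 0.89 and *Ccm2l* at 0.73. *Rem1* and *Ccm2l* had 19 and 26 UMIs in WT and wide intervals. *Gm26841* lies inside *H13*.

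**Figure D5:**
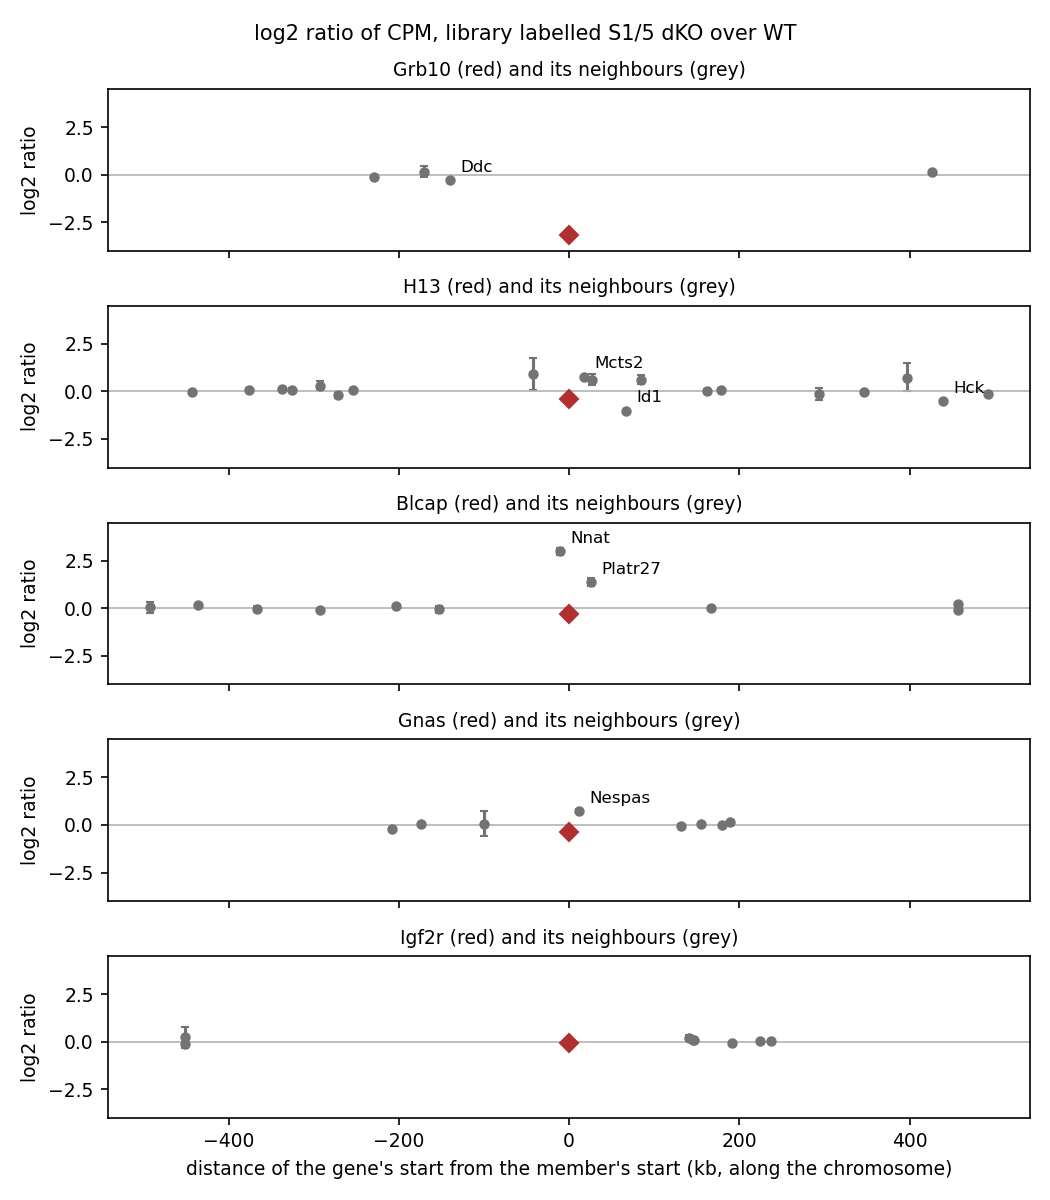
Log2 ratios of the members (red diamonds) and of the genes around them (grey) between the libraries. The x axis is the distance of a gene's start from the start of the member in kb along the chromosome, the y axis the log2 ratio of CPM in the S1/5 dKO-labelled library over WT, and bars are exact 95% intervals. Grb10 lies at −3.15 among neighbours between −0.29 and 0.16.

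Lists of genes from the pathways in which the members act were counted in the same way, with no test between a list and the members. Of 26 genes of insulin and IGF receptor signalling, 22 were measured with at least 50 UMIs, with a median log2 ratio of −0.06, and none was 2-fold apart, while 4 of the 22 were at least 1.2-fold lower and 1 higher, where 11.4% and 9.13% of all genes were. The receptor *Igf1r* was at −0.50, the PI3-kinase subunit *Pik3r2* at −0.54, the transcription factor *Foxo3* at −0.36 and the kinase *Akt1* at 0.29. Among 7 relatives and binding partners of GRB10, *Grb14* of the same family was at −0.50, from 139 and 112 UMIs, and the ubiquitin ligase gene *Nedd4* at −0.09. Of 20 genes of the mannose 6-phosphate receptor and lysosomal sorting list, 0 were 1.2-fold apart, and the other receptor *M6pr* was at 0.08. Of 24 genes of Gs and cAMP signalling, 3 were 1.2-fold lower and 0 higher, a share of lower genes near the 11.4% of all genes. Of these 3, the phosphodiesterase *Pde4d* was at −0.39, the adenylate cyclase *Adcy9*, with 36 and 22 UMIs, at −0.89, and *Gnal* had an interval from −0.94 to 0.36. Of 11 genes of the signal peptide peptidase family and its partners, and of the translation factors *Mcts1*, *Denr* and *Eif2d*, 0 were 1.2-fold apart.

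The members were also set beside the other imprinted genes. Of 18 paternally expressed genes with at least 50 UMIs, 14 were at least 1.2-fold higher in the S1/5 dKO-labelled library and 1 (*Ddc*) lower. The 18 include *Nnat* and *Nespas*. Of all genes, 9.13% were at least 1.2-fold higher and 11.4% lower. The paternally expressed genes had a median log2 ratio of 0.91, whereas 16 other maternally expressed genes had a median of −0.05, with 5 higher and 3 lower. Of the latter, the growth regulators *Phlda2* at −0.60 and *Cdkn1c* at −0.45 and the transcription factor *Ascl2* at −0.40 lay on the side of *H13* and *Gnas*, while *Meg3* was at 0.33, *Pon2* at 0.41 and *Pon3* at 0.64. *H19*, with 4 and 93 UMIs, was at 4.36. *Grb10* lay below all 16, which already follows from its ratio being the lowest of all genes with at least 50 UMIs. The study chose *Mest*, *Nnat* and *Impact* of the paternally expressed list on these samples, so its count is not independent evidence of a direction.

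Over the WT cells, the genes most like a member by Pearson's r of log-normalized values, among genes found in at least 5% of cells, had low r throughout. They were *Nedd4* (0.19), *Hsp90b1* (0.17) and *Hnrnpd* (0.17) for *Grb10*, *Calr* (0.14), *Erp29* (0.13) and *Pdia6* (0.11) for *H13*, and *Mest* (0.17), *Mkrn1* (0.16) and *Slc9a3r2* (0.16) for *Mcts2*. For *Gnas* they were *Cald1* (0.18), *Cd81* (0.17) and *Jund* (0.17), for *Igf2r* *Tmod1*, *Lonp2* and *Prex2* (each 0.12), and for *Blcap* *Sct* (0.10), *Map4k1* (0.09) and *Atp6ap1* (0.09). In the 2910 S1/5 dKO-labelled cells, the r of *Grb10* with *Nedd4* was 0.05 and that of *Mcts2* with *Mest* −0.01. The points share library and depth, and in sparse counts such weak values are no finding.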

How the data were processed

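Single-cell libraries (Chromium 3′ v3 kit) were made from WT and *Smad1/5* dKO E14 mESCs, 1 library each, grouped by the labels. The authors used Cell Ranger 3.0.2 and the mm10 reference, and the UMI counts they deposited for each gene in each barcode are not normalized. All values given were computed from them. The study's limits on barcodes were used (1000 or more detected genes, no more than 5% mitochondrial UMIs), and no doublets were removed. Counts were summed over cells and scaled to UMIs per 1000000 (CPM). A gene needed 50 UMIs in the libraries together to be given a ratio, with exact 95% intervals (Poisson or binomial). Depth, a median of 38662 and 34548.5 UMIs per cell, sets these intervals. Gene positions are from GENCODE vM21 (GRCm38), and promoters from RefSeq, where 8 of 9 gene names matched.

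The members and lists were chosen with earlier results of these data known. Genes named are the members, their partners, *Mcts1*, *Mest*, *Id1*, *Smad1*, *Smad5*, neighbours within 500 kb at least 1.5-fold apart or nearest, list genes at least 1.5-fold apart or up to 4 examples per list, and the 3 genes most like each member. *Sp5* and *Nanog* were named beyond this, after the values of the members were seen. The alternatives were TMM (edgeR 4.0.16, R 4.3.3) and median scaling, per-cell means, thinning, and other limits on UMIs, genes, mitochondrial share and deep or shallow cells. The procedure was tested on simulated data. Versions were Python 3.11.15, numpy 2.4.6, scipy 1.17.1, pandas 2.3.3, biopython 1.88 and matplotlib 3.10.9.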

Additional observations from a re-analysis of the deposited data

How the results depend on the processing

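The log2 ratios of the 6 members were recomputed under 8 alternatives each, and all 48 values stayed within the counting interval of the value reported, with ranges from −3.17 to −3.03 for *Grb10*, −0.43 to −0.40 for *H13*, 0.76 to 0.80 for *Mcts2*, −0.11 to 0.06 for *Igf2r*, −0.39 to −0.37 for *Gnas* and −0.29 to −0.24 for *Blcap*. TMM and median of ratios scaling moved all log2 ratios by 0.01 and 0.02. Differences in the share of cells with a UMI move with the number of UMIs drawn, by construction. At 10000 UMIs they were −14.0 percentage points for *Grb10*, −5.52 for *H13*, 18.6 for *Mcts2*, 0.17 for *Igf2r*, −7.11 for *Gnas* and −1.20 for *Blcap*. At 5000 UMIs they were −6.99 for *Grb10*, −2.91 for *H13* and −10.5 for *Gnas*. Without thinning they were −36.8 for *Grb10*, −12.9 for *H13*, 9.49 for *Mcts2*, −3.82 for *Igf2r*, −1.12 for *Gnas* and −6.78 for *Blcap*. The *Mcts2* share of its pair in WT was 64.9% after thinning, and the other 11 recomputed shares of the pairs stayed within their intervals. After thinning to 10000 UMIs, the observed minus the same-rate share of WT cells was −1.67 points for *Grb10*, −2.16 for *Mcts2* and −1.19 for *Gnas*, against −9.69, −4.72 and −0.41 without thinning, and for *Mcts2* in the S1/5 dKO-labelled library −2.43 against −1.75. Genes at least 2-fold apart numbered 178, and 402 with at least 20 UMIs or 35 with at least 500. The limits of the data are 1 library per condition, counts that do not separate alleles or transcripts of a locus, and few UMIs per cell for *Igf2r*, *Blcap* and *Airn*. No paired analysis was possible because each condition has 1 library.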
